A study of Mus musculus with 12 samples.

Results

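The genes examined were 8 keratins of stratified squamous epithelium (Krt5, Krt14, Krt15, Krt6a, Krt4, Krt13, Krt1 and Krt10) and Trp63, the gene of the transcription factor p63. They were taken by symbol from the deposited FPKM table, in which all 9 were found among 55401 genes, and FPKM scales the fragments of a gene to the length of its transcript and to all fragments of the library, so that levels can be compared between genes per length. RNA was sequenced from 12 mouse libraries labelled as orthotopic oral tumor, 3 in each of 4 groups. All mice are labelled C57BL/6 and received MTC-Q1 oral cancer cells, a line derived from a mouse tongue tumor, which the methods of the study place in the buccal mucosa, and treatment began at a tumor size of 100 mm3. The groups were a control isotype IgG (Ctrl-IgG), an antibody against the macrophage receptor CSF1R (aCSF1R), interleukin-10 carried on the Fc region of an antibody (IL-10-Fc), and BF10, in which interleukin-10 is fused to the CSF1R antibody. The labels give 6 doses in one place and 4 in another, and no age or allele. Libraries are numbered 1 to 3 within a group in deposit order. Nothing states that they came from separate animals, so a spread between libraries may be technical.

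Keratins are the intermediate filament proteins of epithelial cells and work as pairs of a type I and a type II chain. In stratified squamous epithelium the basal layer makes Krt5 with Krt14, and Krt15 marks part of the same layer. Cells that leave the basal layer change the pair. Cornifying epithelium such as skin makes Krt1 with Krt10, the non-cornifying lining of the mouth and oesophagus makes Krt4 with Krt13, and Krt6a appears in oral epithelium, hair follicles and wounded or proliferating epithelium. p63 is a relative of p53 that maintains the basal layer and switches on basal genes such as Krt5 and Krt14. Squamous carcinomas often keep part of this programme.

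All type II genes examined lie in one cluster and all type I genes in another. In GRCm38, Krt6a (chr15:101689910-101694307), Krt5 (chr15:101707070-101712898), Krt1 (chr15:101845426-101850794) and Krt4 (chr15:101918535-101924735) are the type II genes. Krt10 (chr11:99385254-99389364), Krt13 (chr11:100117327-100121566), Krt15 (chr11:100131758-100135928) and Krt14 (chr11:100203162-100207548) are the type I genes, and all 8 are on the minus strand. Trp63 covers chr16:25683763-25892102 on the plus strand. One promoter each of the basal, mucosal and cornifying layers is shown. These are the 3 of the 9 genes whose RefSeq and GENCODE start sites lay within 10 bases. Each is the 250 bases before the RefSeq start site on the minus strand of GRCm38.p6, read 5′ to 3′. Krt5 is chr15:101712906-101713155, Krt13 is chr11:100121567-100121816 and Krt10 is chr11:99389365-99389614, all upstream of the first exon. Capitals mark matches to the p53-family half-site motif (Krt5), to the AP-1 motif in the loose form TGANTCA (Krt13) and to the TATA box motif TATAAA (Krt10). Each was searched on both strands. N stands for any base, and it is A in the Krt13 match.
Krt5: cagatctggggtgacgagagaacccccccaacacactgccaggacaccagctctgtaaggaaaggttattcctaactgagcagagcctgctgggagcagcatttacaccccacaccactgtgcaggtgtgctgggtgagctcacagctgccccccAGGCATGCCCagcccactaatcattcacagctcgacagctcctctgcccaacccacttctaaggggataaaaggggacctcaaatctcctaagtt
Krt13: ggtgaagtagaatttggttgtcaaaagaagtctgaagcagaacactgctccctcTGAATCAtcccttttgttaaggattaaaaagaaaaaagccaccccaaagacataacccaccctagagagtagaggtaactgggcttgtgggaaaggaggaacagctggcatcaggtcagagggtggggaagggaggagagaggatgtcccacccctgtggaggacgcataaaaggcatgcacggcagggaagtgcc
Krt10: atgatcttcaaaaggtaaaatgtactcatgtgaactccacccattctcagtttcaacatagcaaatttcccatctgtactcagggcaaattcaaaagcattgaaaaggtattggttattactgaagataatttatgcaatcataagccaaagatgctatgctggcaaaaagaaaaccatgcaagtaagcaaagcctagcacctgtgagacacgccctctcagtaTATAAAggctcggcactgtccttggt
The p53-family match in Krt5 starts at position -95 counted from the start site, and 7.13% of all 32851 promoters in the table hold such a match in their window. The match to the loose AP-1 form in Krt13 starts at -196 and is shared with 6.75% of promoters, and the TATA box of Krt10 starts at -26 and is shared with 12.4%. None of the 3 windows held a match to more than 1 of these 3 motifs. A match in letters is a description of the sequence and not a measured site.

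The FPKM sum per library ran from 637596 to 976950, and depth in reads is not known. Relative depth read from the steps of low values ran from 0.945 to 1.41 with Ctrl-IgG 1 set to 1. That reading used 6 to 31 genes for each other library. It cannot see a factor of 2 in depth, so it does not show that depths were alike. Mitochondrial genes held 6.57% to 9.04% of the FPKM in IL-10-Fc 1, IL-10-Fc 2, BF10 1 and, at 7.19%, in Ctrl-IgG 2, against 2.99% to 3.61% in the other 8 libraries. The 6 libraries labelled IL-10-Fc or BF10, called the IL-10 set below, stood apart from the 6 labelled Ctrl-IgG or aCSF1R, called the control-side set, in genes that the treatment labels do not name. H2-Ea, an MHC class II gene that C57BL/6 mice are known not to express, was between 553 and 1727 FPKM in the IL-10 set and at most 0.27 FPKM in the control-side set. Xist was between 17.1 and 30.7 FPKM in the IL-10 set and at most 0.04 in the control-side set, and the Y-linked gene Eif2s3y was between 4.23 and 11.3 FPKM in the control-side set, at most 0.05 in 5 libraries of the IL-10 set and 3.29 in BF10 3. The H2-Ea values go against a single strain label for all 12 libraries. Xist and Eif2s3y lie on the sex chromosomes, and their values go against a single sex, with both present in BF10 3. Any difference between the 2 sets of 6 is therefore a difference between libraries labelled with those treatments. Treatment cannot be told apart from whatever else separates the sets. Ctrl-IgG against aCSF1R and IL-10-Fc against BF10 are the 2 comparisons within a set. All other comparisons rest on both sets and cannot be made without either of them.

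Within the control-side set, a second division ran across the groups. All 9 genes had their 3 highest levels in the same 3 libraries, Ctrl-IgG 3, aCSF1R 1 and aCSF1R 2. The summed level of the 8 keratins was 2018, 1490 and 2021 FPKM in these 3, which is 0.297%, 0.217% and 0.308% of each library's FPKM sum. In Ctrl-IgG 1, Ctrl-IgG 2 and aCSF1R 3 the same sum was 2.45, 4.92 and 2.99 FPKM. Across the IL-10 set it ran from 18.02 to 36.7 FPKM. The labelled cell type, oral cancer, was therefore accompanied by squamous keratins at high level in 3 of 12 libraries, and neither Ctrl-IgG nor aCSF1R was uniform. In bulk RNA, fewer cells of a type and less RNA per cell cannot be told apart.

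**Figure D1:**
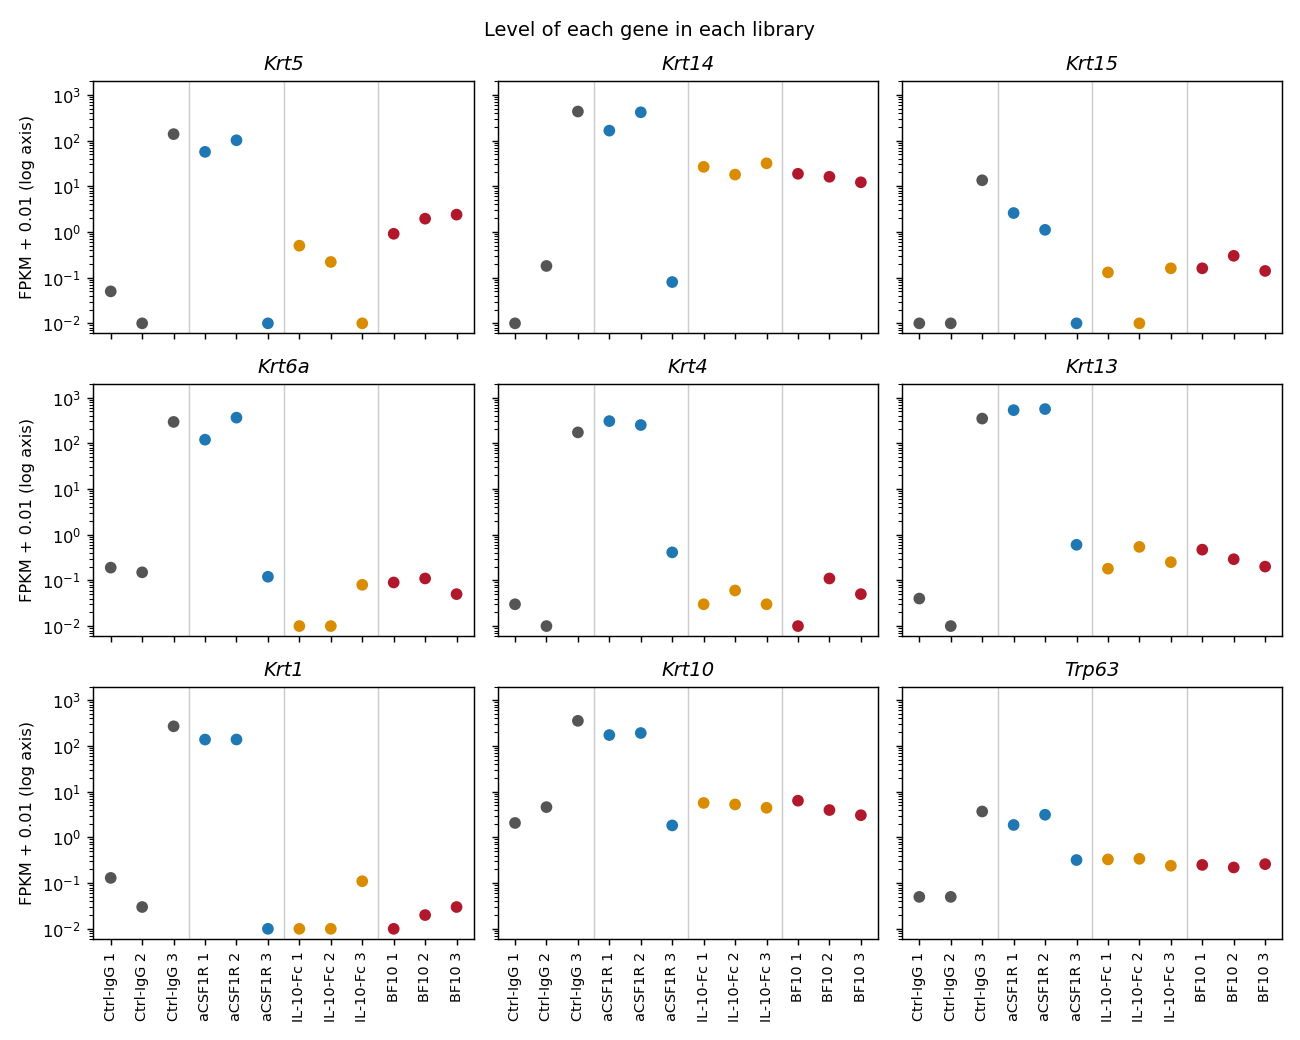
Level of each of the 9 genes in each of the 12 libraries, as FPKM + 0.01 on a log axis, with 1 point per library colored by treatment group. In every panel Ctrl-IgG 3, aCSF1R 1 and aCSF1R 2 are the 3 highest points, and Krt14 and Krt10 alone stay above 1 FPKM in all 6 libraries of the IL-10 set.

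Of the basal genes, Krt5, the type II chain of the basal pair, was 0.04, 0 and 138 FPKM in Ctrl-IgG 1 to 3 and 56.4, 101 and 0 FPKM in aCSF1R 1 to 3. In the IL-10 set it was 0.9, 1.94 and 2.38 FPKM in BF10 and 0.49, 0.21 and 0 FPKM in IL-10-Fc. Thus Ctrl-IgG and aCSF1R each held levels near 0 and above 50 FPKM, while IL-10-Fc and BF10 stayed at 2.38 FPKM or less. Krt14, its type I partner, was 0, 0.17 and 431 FPKM in Ctrl-IgG, 164, 414 and 0.07 in aCSF1R, 18.7, 16.1 and 12.2 in BF10, and 26.5, 17.9 and 31.7 in IL-10-Fc. Krt14 thus had 2 separate raised levels, one of 164 FPKM or more in the 3 high libraries and one of 12.2 to 31.7 FPKM in the whole IL-10 set. Krt15, another basal keratin, was far lower, at 0, 0 and 13.5 FPKM in Ctrl-IgG and 2.58, 1.1 and 0 in aCSF1R, and it reached at most 0.29 FPKM in BF10 and 0.15 in IL-10-Fc. Ctrl-IgG 3 was the only library in which Krt15 exceeded 3 FPKM.

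Trp63 was 0.04, 0.04 and 3.68 FPKM in Ctrl-IgG and 1.86, 3.12 and 0.31 in aCSF1R. Values of 0.24, 0.21 and 0.25 FPKM were found in BF10 and of 0.32, 0.33 and 0.23 in IL-10-Fc. The transcription factor gene therefore had the keratins' 3 high libraries at a much lower level, and outside them aCSF1R 3 lay within the range of the IL-10 set while Ctrl-IgG 1 and 2 lay below it. The lowest of the 3 high libraries held 5.64 times the Trp63 of the highest of the other 9. For the basal keratins this step was 23.7 in Krt5, 5.19 in Krt14 and 3.79 in Krt15.

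In the mucosal pair, Krt13 had the highest level of the 9 genes. This type I chain was 0.03, 0 and 346 FPKM in Ctrl-IgG, 530, 560 and 0.59 in aCSF1R, and between 0.17 and 0.53 in the IL-10 set. Krt4, its type II partner, was 0.02, 0 and 173 FPKM in Ctrl-IgG, 305, 250 and 0.4 in aCSF1R, and at most 0.1 FPKM in the IL-10 set. For both, the 2 high aCSF1R libraries lay above Ctrl-IgG 3, and the other 9 libraries lay below 1 FPKM. The step between high and low libraries was 587-fold in Krt13 and 432-fold in Krt4.

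Krt1, the type II chain of the cornifying pair, was 0.12, 0.02 and 269 FPKM in Ctrl-IgG, 138, 139 and 0 in aCSF1R, and at most 0.1 FPKM in the IL-10 set. Krt10, its type I partner, was 2.06, 4.59 and 355 FPKM in Ctrl-IgG, 174, 192 and 1.82 in aCSF1R, 6.35, 3.96 and 3.05 in BF10, and 5.66, 5.25 and 4.44 in IL-10-Fc. Both partners were highest in Ctrl-IgG 3, and Krt10 was the 1 keratin examined that was above 1 FPKM in all 12 libraries, its partner Krt1 being at or below 0.12 FPKM in the 9 low ones. The step of Krt1 was 1152-fold, the widest of the 9 genes, and that of Krt10 was 27.3-fold.

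Krt6a was 0.18, 0.14 and 293 FPKM in Ctrl-IgG, 120, 363 and 0.11 in aCSF1R, and at most 0.1 in the IL-10 set, with a step of 665-fold. Of the 75-base windows of the Krt6a transcript, 42.3% also occur in other genes, 36.2% in Krt6b, so the split of reads between Krt6a and Krt6b is uncertain. Krt5 shares 5.18% of its windows with other genes and Krt14 5.91%, and the other 6 genes share none. Krt15, Krt6a, Krt4, Krt13, Krt1 and Trp63 reached 1 FPKM in exactly 3 libraries, so these 6 genes entered the tests only through their high libraries.

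The pairs kept similar proportions in the 3 high libraries. Krt14 was 3.13, 2.92 and 4.09 times Krt5 in Ctrl-IgG 3, aCSF1R 1 and aCSF1R 2, Krt13 was 2.01, 1.74 and 2.24 times Krt4, and Krt10 was 1.32, 1.26 and 1.39 times Krt1. The layers were less constant. Krt4 and Krt13 together made 25.7% of the keratin sum in Ctrl-IgG 3 but 56.0% in aCSF1R 1 and 40.1% in aCSF1R 2, whereas Krt1 and Krt10 made 31.0%, 20.9% and 16.4%. The basal keratins made 28.8%, 15.0% and 25.6%, and Krt6a made 14.5%, 8.03% and 17.98%. The mucosal pair was therefore 0.831 of the cornifying pair in Ctrl-IgG 3 and 2.68 and 2.45 times it in aCSF1R 1 and 2. These 3 libraries were picked out by their keratin level, so the proportions are a description of single libraries and not a comparison of treatments.

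**Figure D2:**
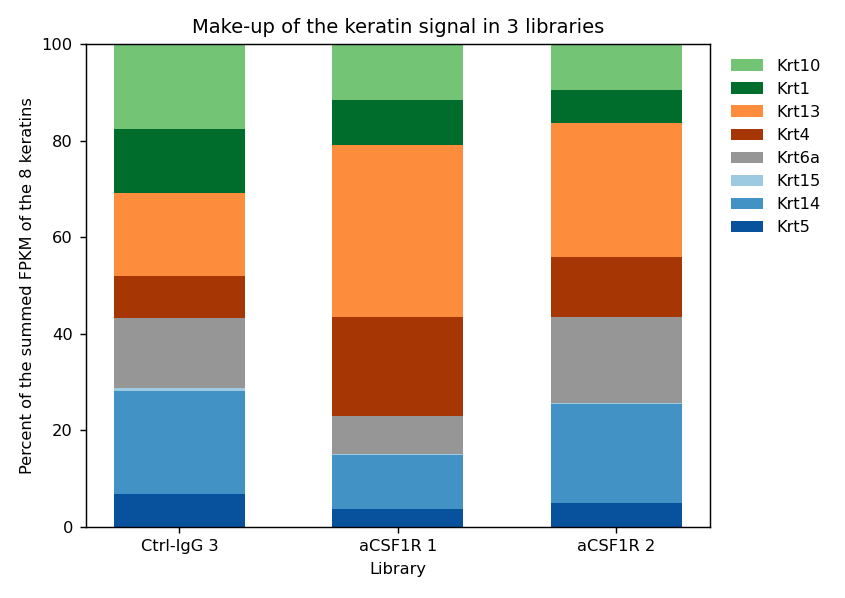
Share of each keratin, in percent of the summed FPKM of the 8 keratins, in Ctrl-IgG 3, aCSF1R 1 and aCSF1R 2, the 3 libraries where that sum was highest. The mucosal pair Krt4 and Krt13 makes 25.7% of the bar in Ctrl-IgG 3, 56.0% in aCSF1R 1 and 40.1% in aCSF1R 2.

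Gene by gene, aCSF1R 1 and aCSF1R 2 were both above Ctrl-IgG 3 in the mucosal pair and both below it in the other genes, except Krt6a. Krt4 was 1.77 and 1.45 times its Ctrl-IgG 3 level, and Krt13 was 1.53 and 1.62 times. Krt1 was 0.513 and 0.515 times and Krt10 0.489 and 0.541 times. Krt15 was 0.191 and 0.0816 times, the lowest ratios of the 9. Krt5 was 0.409 and 0.735 times, Krt14 0.382 and 0.962, Trp63 0.505 and 0.848, and Krt6a 0.409 and 1.24, so these 4 lay nearer to Ctrl-IgG 3 in aCSF1R 2 than in aCSF1R 1, while Krt15 lay farther away.

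The keratin signal of the IL-10 set had a different form. The basal keratins made 74.1% to 86.7% of the keratin sum there, and nearly all of that was Krt14. With Krt5 at 0.49 and 0.21 FPKM in IL-10-Fc 1 and 2, Krt14 was 54.1 and 85.4 times its partner, and Krt5 was listed at 0 in IL-10-Fc 3. In BF10 the factor was 20.8, 8.29 and 5.11. Krt14 thus stood without a comparable level of Krt5 in these libraries, unlike in the 3 high ones. The type II keratins at high level there were Krt7, at 87.5 to 230.2 FPKM, and Krt8, at 169 to 618 FPKM, both of simple epithelium, together with the type I partner of Krt8, Krt18, at 294 to 614 FPKM. All 3 were at most 0.28 FPKM in the whole control-side set, the libraries with high squamous keratins included. Within the IL-10 set, Krt14 came to between 0.0254 and 0.131 of the Krt8 level.

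**Figure D3:**
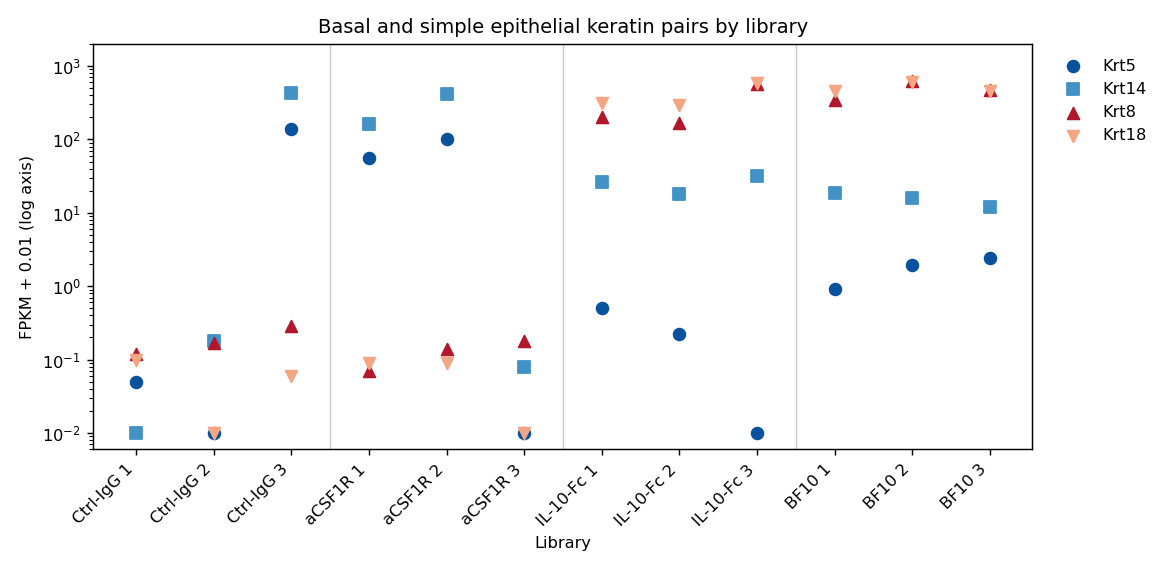
Levels of the basal pair Krt5 and Krt14 and the simple epithelial pair Krt8 and Krt18 in each library, as FPKM + 0.01 on a log axis. Krt8 and Krt18 are at 169 FPKM or more in every library of the IL-10 set and at most 0.28 elsewhere, while Krt14 is at 12.2 FPKM or more in 9 libraries and Krt5 above 3 FPKM in 3.

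Between IL-10-Fc and BF10, Krt5 and Krt14 had fold changes of opposite sign within a narrow range of levels. They had the highest and lowest fold change of the 9 genes here, and only these 2 were given a permutation test. Krt5 was 0.233 ± 0.246 FPKM (SD, n = 3) in IL-10-Fc and 1.74 ± 0.76 in BF10, a log2 fold change of 1.13 on the scale of FPKM + 1. The groups did not overlap, and the two-sided exact permutation test gave p = 0.1, the smallest that 20 assignments of 3 against 3 libraries allow. That p follows from the lack of overlap and adds nothing to it. How many of all genes did not overlap between these groups is not given, so the lack of overlap is only a description of Krt5. In limma the adjusted p was 0.704 with a standard error of 1.93 shared by all 12 libraries, and 0.600 with a standard error of 0.27 when these 6 libraries were fitted alone. Krt14 was 25.4 ± 6.94 FPKM (SD, n = 3) in IL-10-Fc and 15.6 ± 3.28 in BF10, with overlapping groups, a log2 fold change of -0.65 and an exact permutation p = 0.2. Neither gene passed the test.

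The comparison of aCSF1R with Ctrl-IgG asks what blocking CSF1R alone did. For 8 genes the fold change was above 0 and Krt15 was below, from -0.32 in Krt15 to 3.46 (SE 2.42) in Krt13, with a median of 1.99 beside 0.11 over all 15813 genes tested. A gene was called at a limma adjusted p under 0.05 with a fold change of at least 1.5. None of the 9 was called, their adjusted p values lay between 0.958 and 0.965, and 0 of the 9 had an unadjusted p under 0.05. The background was the same, with 0% of all genes called and 437 genes at an unadjusted p under 0.05. Both groups held high and low libraries, 1 of 3 high in Ctrl-IgG and 2 of 3 in aCSF1R. Without Ctrl-IgG 3, aCSF1R 1 and aCSF1R 2, which leaves 2 libraries against 1, the fold change of Krt13 was 0.65. The median of the 9 genes depended on single libraries. It was 4.65 without Ctrl-IgG 3 and 4.37 without aCSF1R 3. Without any 1 of the other 4 libraries of these groups it was between 0.63 and 0.95. In each of these fits 0 were called. Without Ctrl-IgG 3, 9 of 9 had an unadjusted limma p under 0.05, beside 1048 of all 15813 genes. Without aCSF1R 3, 6 of 9 did, beside 420. Those libraries are the 1 high Ctrl-IgG and the 1 low aCSF1R library, so these p values follow from the levels and no test is drawn from them. Fitting the 6 libraries of the control-side set alone, so that no value of the IL-10 set entered, also gave 0 calls.

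Setting BF10 beside IL-10-Fc addresses what the CSF1R-binding part contributed. Of the 9 genes, 0 were called and 0 had an unadjusted p under 0.05, beside 0.0126% of all genes called. The median fold change was 0.00 in log2 beside 0.34 over all genes, from -0.65 in Krt14 to 1.13 in Krt5. Mucosal and cornifying keratins apart from Krt10 were at 0.53 FPKM or less in all 6 libraries, so a change in them was not detectable at this level. How far BF10 departed from its components combined was asked by subtracting both single treatments and adding the control back. This contrast was called in 0 of the 9, with a limma adjusted p of 0.9996 for each, beside 0.00632% of all genes.

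Comparisons across the 2 sets of 6 libraries gave larger values with the same spread. BF10 against Ctrl-IgG gave 0 of 9 called, beside 24.9% of all genes, and a median of -1.79 beside -0.12, which was 0.25 without Ctrl-IgG 3. IL-10-Fc against Ctrl-IgG gave 0 of 9, beside 33.7% of all genes, and a median of -2.11 beside -0.39, which was 0.26 without Ctrl-IgG 3. In both, Krt14 was the 1 gene with a fold change above 0, at 1.04 and 1.69 (SE 2.40 each), while Krt6a had the lowest, at -2.77 and -2.84. BF10 against aCSF1R gave 0 of 9, beside 25.0%, and a median of -3.11 beside -0.21, with all 9 below 0. IL-10-Fc against aCSF1R gave 0 of 9, beside 42.2%, and a median of -3.89 beside -0.51, again with all 9 below 0. These 4 comparisons share their Ctrl-IgG or aCSF1R libraries, and the members' share called was below the background in each.

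Krt6a, Krt4 and Krt13 came nearest to the threshold. Against aCSF1R, their unadjusted limma p was under 0.05 for BF10 as well as for IL-10-Fc. Of all 15813 genes, 5907 and 8480 had such a p there, a larger share than 3 of 9 in both. The 3 genes had also entered the tests only through their high libraries. The lowest adjusted limma p of the 9 was 0.0591, for Krt4 in IL-10-Fc against aCSF1R (log2 fold change -5.53, SE 2.16). Single libraries decided these calls. Without aCSF1R 3, the 1 aCSF1R library that was low, 5 genes were called lower in BF10 and 6 lower in IL-10-Fc than in aCSF1R. Of all 15813 genes tested, 2943 and 5104 were called there in either direction. Krt4 was at -8.05 and -8.07. Without Ctrl-IgG 3, which enters only through the shared spread, 4 and 6 were called, beside 3998 and 6626 of all genes. With Ctrl-IgG 3, aCSF1R 1 and aCSF1R 2 all left out, the fold changes of Krt6a, Krt4, Krt13 and Krt1 against aCSF1R 3 lay between -0.44 and 0.05.

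Krt14 had higher fold changes when those 3 libraries were left out. Its log2 fold change was 3.92 in BF10 and 4.57 in IL-10-Fc against Ctrl-IgG 1 and 2, where with all libraries it had been 1.04 and 1.69, and it was 3.94 and 4.59 against aCSF1R 3. Since the libraries were left out for their level of these genes, no test is drawn from that setting. In levels, the lowest library of the IL-10 set had 12.2 FPKM of Krt14 and the 3 low Ctrl-IgG and aCSF1R libraries had at most 0.17. Those 3 are the libraries left after that choice by level, so this too is only a description.

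**Figure D4:**
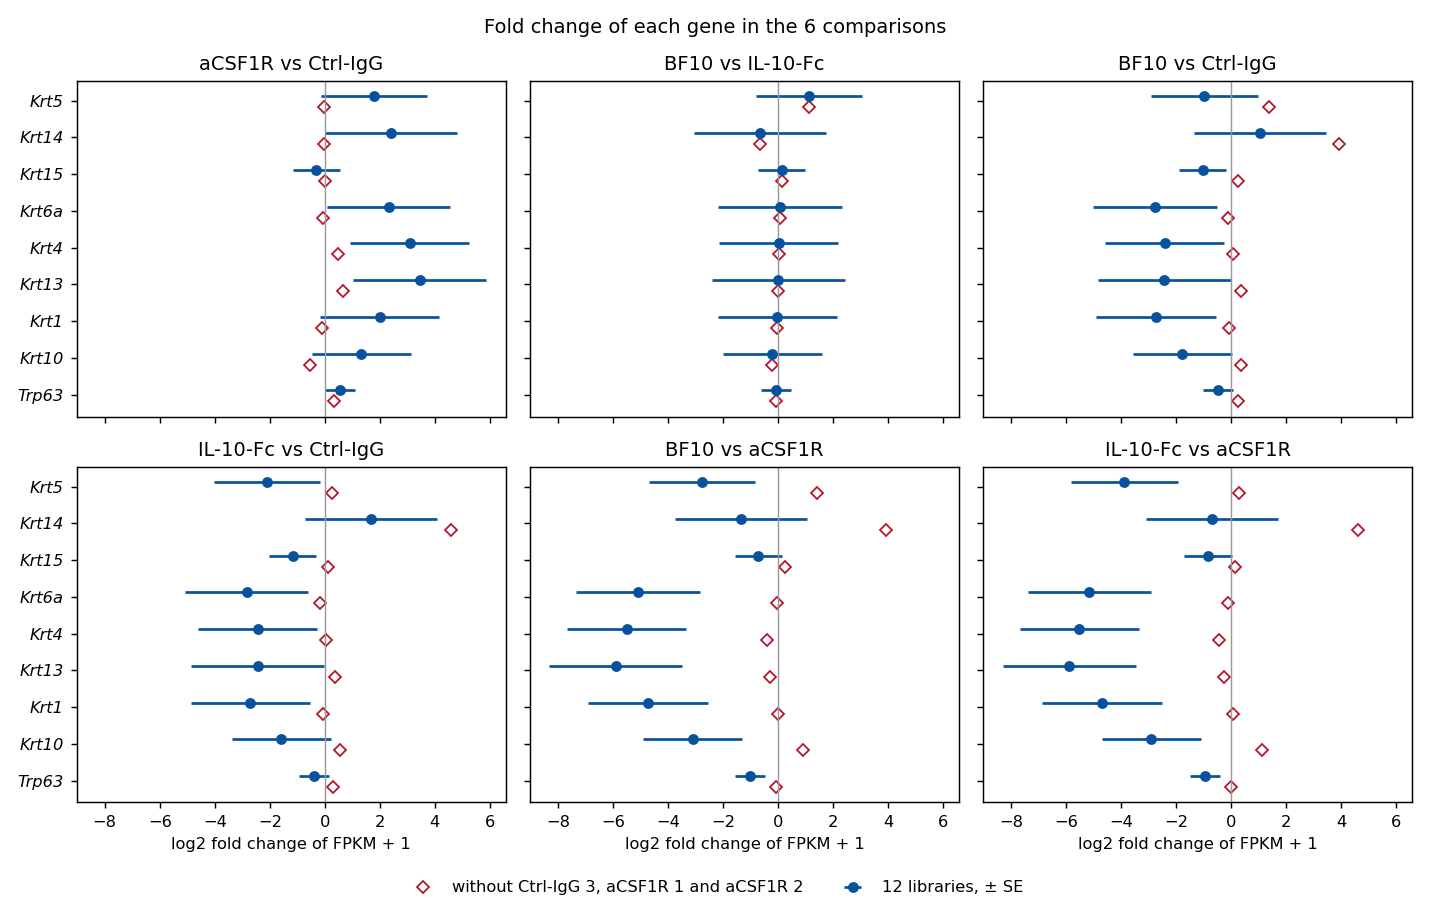
Log2 fold change of FPKM + 1 for each gene in the 6 comparisons, with all 12 libraries as filled points with bars of 1 standard error, and without Ctrl-IgG 3, aCSF1R 1 and aCSF1R 2 as open diamonds. Most diamonds lie close to 0, and Krt14 lies at between 3.92 and 4.59 in the 4 comparisons across the 2 sets of libraries.

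The spread of these genes was among the widest measured. Over 15813 genes, Krt13 had the largest standard error of a difference between groups (2.42), 1 gene lay above Krt14 (2.40), 4 above Krt6a, 5 above Krt1, 6 above Krt4, 10 above Krt5 and 18 above Krt10. For Krt15 (0.86) and Trp63 (0.55), 2.08% and 15.3% of genes had a larger one.

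The genes outside the 9 with the most similar pattern were found for each gene. By Pearson r of log2(FPKM + 1) over the 12 libraries, a value set mainly by the 3 high libraries and given as a description among 11304 genes compared, Krt5 was most like Trim29, Col17a1 and Pkp1 (r = 0.990, 0.987 and 0.987). Krt6a was most like Krt6b, Gsdmc and Dsc1, Krt4 and Krt13 were most like Sprr3, Krt78 and Serpinb3a, and Krt1 was most like Calm4, Trex2 and Lce1i, all at r of at least 0.998. Krt10 had Serpinb12, Trex2 and Lce1i as its nearest (r = 0.989, 0.987 and 0.986), and Trp63 had Il1f5, Krt17 and Il1f6 (r = 0.987, 0.985 and 0.985).
Krt14 had a different set of nearest genes, Perp, S100a14 and Lypd3 (r = 0.978, 0.972 and 0.962). Perp, a junction protein of stratified epithelium, was 113, 50.5 and 82.6 FPKM in the 3 high libraries, between 10.8 and 23.3 FPKM in the IL-10 set, and at most 0.19 in the 3 low ones, the same 3 levels as Krt14. Krt15 was most like Sdr16c6, Krt71 and Fa2h (r = 0.991, 0.991 and 0.987). Krt71, a hair follicle keratin, was 17.0 FPKM in Ctrl-IgG 3, 2.15 in aCSF1R 1 and 1.54 in aCSF1R 2.
Between the 9 genes themselves, r ran from 0.72 to 0.999 over 36 pairs, and the lowest r in a pair without Krt14 was 0.816.

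Other genes of the squamous programme were taken from 6 lists. For each list the genes that were higher in each of Ctrl-IgG 3, aCSF1R 1 and aCSF1R 2 than in any other library were counted, as a description, beside 6.31% of all tested genes. Genes low elsewhere could pass the filter on low values only through these 3 libraries. Of 12 other stratified keratins, 7 passed the filter, and all 7 were highest in the 3 libraries. Of these 1 was called, Krt16, a partner of Krt6a, lower in IL-10-Fc than in aCSF1R (log2 fold change -5.00, SE 1.81, limma adjusted p = 0.0452). In that comparison 4937 of all 15813 genes were called lower. Krt6b was 310, 134 and 403 FPKM in the 3 high libraries and at most 0.05 in the others. Krt17 was 76.8, 25.7 and 50.5 FPKM there and at most 1.19 elsewhere.

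Of 22 cornified envelope genes, which build the tough shell of dead surface cells, 19 passed the filter and 18 of these were highest in the 3 libraries. The exception was Ppl, which encodes periplakin, at 7.72, 5.38 and 8.12 FPKM in the 3 high libraries and up to 17.7 in BF10 3. Of the 19, 1 was called lower in IL-10-Fc than in Ctrl-IgG, beside 3729 of all 15813 genes called lower. Lower than in aCSF1R were 1 in BF10, beside 2212 of all genes, and 4 in IL-10-Fc, beside 4937. None of the 19 was called higher. Krtdap was 220, 154 and 168 FPKM and Lor, which encodes loricrin, was 82.7, 72.5 and 77.03 FPKM in the 3 high libraries, against at most 1.07 and 0.05 in the other 9.

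Of 16 desmosome and junction genes, all tested, 10 were highest in the 3 libraries. Among them Pkp1, a plakophilin, was 28.3, 15.02 and 26.9 FPKM there and at most 0.75 elsewhere, and Dsg3, a desmoglein of basal cells, was 7.26, 3.85 and 10.1 FPKM and at most 0.03 elsewhere. Jup, the plakoglobin gene, was 39.2, 21.5 and 39.4 FPKM in the 3 high libraries and 4.87 to 10.4 in the 3 low ones, with 15.98 to 41.7 in the IL-10 set, so it was not among the 10. In the 4 comparisons of IL-10-Fc or BF10 with Ctrl-IgG or aCSF1R, 3 to 5 of the 16 were called higher and at most 1 lower. Of all 15813 genes, 1597 to 1859 were called higher there and 2082 to 4937 lower, which is 24.9% to 42.2% in either direction. Adhesion genes of basal cells were mixed. Col17a1, which encodes a hemidesmosome collagen, was 10.96, 5.71 and 11.1 FPKM in the 3 high libraries and at most 1.03 elsewhere. Itga3, an integrin chain, was 49.97 to 293 FPKM in the IL-10 set and 1.69 to 6.29 in the control-side set, and it was called higher in each of the 4 comparisons.

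Of 10 simple epithelial and pan-epithelial genes, 9 passed the filter, and 2 of these, Rab25 and Esrp1, were highest in the 3 libraries. In each of the 4 comparisons 6 of the 9 were called higher, where 1597 to 1859 of all 15813 genes were called higher. Among the 6, Krt18 was higher by 8.49 to 8.92 and Krt8 by 7.84 to 8.71 in log2. Rab25 and Esrp1 had fold changes below 0 in each and were not called. No gene of any of the 6 lists was called in aCSF1R against Ctrl-IgG or in BF10 against IL-10-Fc.

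Of 19 transcription factors and partners of p63, 15 passed the filter, and 6 of these were highest in the 3 libraries. Zfp750, a factor of epidermal differentiation, was 4.28, 2.45 and 3.75 FPKM there and at most 0.1 elsewhere, and Grhl1 and Barx2 were at most 0.63 and 0.16 elsewhere. In the 4 comparisons 3 of the 15 were called higher and 1 to 4 lower. Of all 15813 genes, 1597 to 1859 were called higher there and 2082 to 4937 lower. Sfn, an epithelial 14-3-3 gene and a known p63 target, was 49.1, 23.5 and 44.8 FPKM in the 3 high libraries and 0.55 to 2.7 in the 3 low ones, and 5.04 to 27.1 in the IL-10 set. Tfap2a and Klf4 were present in every library, at 4.57 to 23.1 and 2.25 to 32.2 FPKM. Sox2 was 6.94 to 11.3 FPKM in the whole control-side set, with and without keratins, and at most 1.19 in the IL-10 set. Ctrl-IgG 1, Ctrl-IgG 2 and aCSF1R 3 therefore held 9.8, 6.94 and 9.89 FPKM of Sox2 and 17.4, 7.06 and 16.5 FPKM of Klf4 with Trp63 at 0.31 FPKM or less and Krt5 at 0.04 or less. Zfp750, Grhl1, Barx2, Sox2, Pkp1, Dsg3, Col17a1 and Ppl were named after their values were seen.

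Markers of other tissue moved with the keratins. Skeletal muscle genes, all 13 of which were found, summed to 1280, 811 and 779 FPKM in Ctrl-IgG 3, aCSF1R 1 and aCSF1R 2, against 62.3, 40.7 and 112 FPKM in Ctrl-IgG 1, Ctrl-IgG 2 and aCSF1R 3 and 23.04 to 155 FPKM in the IL-10 set. Acta1, the muscle actin gene, was 313, 215 and 238 FPKM in the 3 high libraries, 28.6 in aCSF1R 3 and 30.5 in BF10 3, and at most 12.7 elsewhere. So aCSF1R 3 and BF10 3 held some muscle RNA with Krt4 and Krt13 at 0.59 FPKM or less. Hair follicle genes, 13 of 14 found, summed to 65.4 FPKM in Ctrl-IgG 3, 7.21 in aCSF1R 1 and 5.59 in aCSF1R 2, and to at most 0.18 in the other 9. In Ctrl-IgG 3, 12 of the 13 reached 1 FPKM, and 2 did in each of aCSF1R 1 and aCSF1R 2. The 4 sebaceous gland genes summed to 41.6, 8.58 and 4.26 FPKM in the 3 and to at most 0.75 elsewhere, and this order, highest in Ctrl-IgG 3, was that of Krt15. Salivary gland genes summed to 3.81 to 7.99 FPKM in all 12 libraries. Amy1 was 1.63 to 6.97 FPKM. Aqp5 was 0.9 to 4.07 in the IL-10 set and 0.26 to 0.76 in the control-side set. Bpifa2, Smr3a, Muc19 and Pip were at most at 0.12. The part of these other tissues in the keratin levels was not tested.

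**Figure D5:**
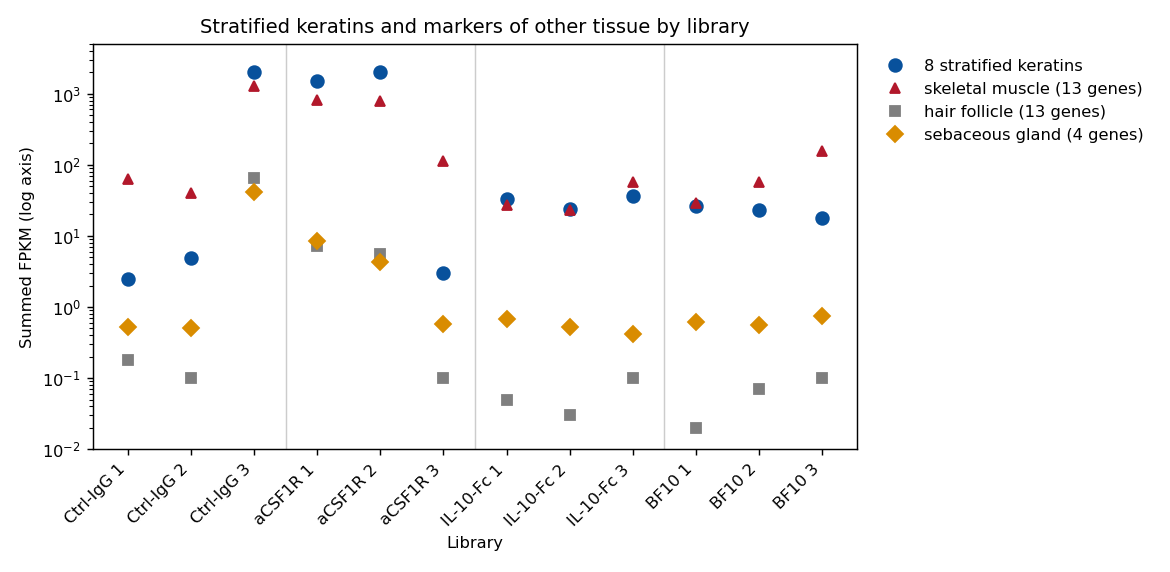
Summed FPKM of the 8 stratified keratins and of marker lists of skeletal muscle, hair follicle and sebaceous gland in each library, on a log axis. All 4 sums are highest in Ctrl-IgG 3, aCSF1R 1 and aCSF1R 2, and the hair follicle and sebaceous sums are highest of all in Ctrl-IgG 3, at 65.4 and 41.6 FPKM.

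The labelled tissue was checked against the markers of the keratinocyte types. Of the 6 oral mucosa markers, 5 were at 1 FPKM or more in each of Ctrl-IgG 3, aCSF1R 1 and aCSF1R 2, with Krt76 absent at 0.1 or less. At most 1 of the 6 reached that level in each of the other 9 libraries. Of the 6 markers of cornifying keratinocytes of skin, 5, 5 and 4 did so in Ctrl-IgG 3, aCSF1R 1 and aCSF1R 2, with sums of 753, 402 and 425 FPKM, and at most 2 in each of the other 9. Of the 6 basal keratinocyte markers, all 6 reached 1 FPKM in the 3 high libraries, 0 or 1 in Ctrl-IgG 1, Ctrl-IgG 2 and aCSF1R 3, and 2 to 4 in the IL-10 set. All 8 keratins except Krt10 were thus at 0.59 FPKM or less in 3 of the 6 libraries of the control-side set.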

How the data were processed

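The 12 libraries were grouped by the treatment label, 3 per group. Per the methods and the submitters' processing notes, stranded mRNA libraries were sequenced as 75-base reads and processed with STAR 2.7.5a and RSEM 1.3.3 on mm10 (GRCm38), and the authors deposited FPKM values for 55401 genes, which are scaled within a library and not between libraries. Tables of the authors' own 4 comparisons (DESeq2 1.30.0), with fold changes and p-values, were not used.

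FPKM are not counts, so log2(FPKM + 1) was fitted with limma 3.58.1 (lmFit, contrasts.fit, eBayes with trend) in R 4.3.3 over all 12 libraries. Fold changes on this scale understate the change of low genes. Tested genes had at least 1 FPKM in at least 3 libraries (15813 genes), with Benjamini-Hochberg adjustment over all of them. The script was tested on simulated data. Read numbers behind single values are unknown, so no counting interval is given, and a value of 0 is given as listed. No pair of libraries was identical (0 pairs).

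The members and lists were chosen with earlier results of these data known. Named genes were all 9 members, the 3 most similar genes per member (at least 5 FPKM in 1 library, no predicted genes) and, from each list, the 4 with the highest mean FPKM. Genes named with a count of 5 or fewer and the marker genes given with a library check were named after their values were seen. Counts for the list of hemidesmosome and basal adhesion genes are not reported here. Gene positions came from GENCODE M21, in which 99.5% of identifiers were found. Promoters came from RefSeq GRCm38.p6 and were used where the start sites of RefSeq and GENCODE lay within 10 bases, which held for 3 of the 9 genes. Alternatives covered the pseudocount, filter, scaling, groups fitted, a covariate, robust moderation and each library left out. Leaving out Ctrl-IgG 3, aCSF1R 1 and aCSF1R 2 together was chosen after seeing the data.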

Additional observations from a re-analysis of the deposited data

How the results depend on the processing

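No paired analysis was possible because the replicate numbers were given in deposit order and mark no shared animal, litter or batch. With all libraries, 0 of the 9 genes were called in each of the 6 comparisons and in the departure of BF10 from its components, and this held for all alternatives in BF10 against IL-10-Fc, in the departure and in aCSF1R against Ctrl-IgG. The exceptions were as follows. A pseudocount of 0.1 gave 1 call in IL-10-Fc against aCSF1R (Krt4), beside 6774 of all 15813 genes. Leaving out 1 library gave 0 to 5 calls in BF10 against aCSF1R and 0 to 6 in IL-10-Fc against aCSF1R. Calls came only without Ctrl-IgG 3 (4 and 6) or aCSF1R 3 (5 and 6). Beside them, 3998 and 6626 of all genes were called without Ctrl-IgG 3, and 2943 and 5104 without aCSF1R 3. Leaving out Ctrl-IgG 3, aCSF1R 1 and aCSF1R 2 together, chosen for their level of these genes, leaves 1 aCSF1R library, which is assumed to vary like the other groups. No test is drawn from that setting and no calls are counted from it. In BF10 against Ctrl-IgG its log2 fold changes were 3.92 for Krt14 and 1.385 for Krt5.

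Among the fold changes and medians the report gives, these turned direction on the log2 scale. In aCSF1R against Ctrl-IgG, the median of the 9 genes ran from 0.63 to 4.65 with 1 library left out and was -0.02 without the 3 libraries, and Krt15 was 0.41 with a pseudocount of 0.1, between -0.96 and 0.97 with 1 library left out, and 0 without the 3 libraries. The medians of BF10 and IL-10-Fc against Ctrl-IgG, -1.79 and -2.11 with all libraries, were 0.25 and 0.26 without Ctrl-IgG 3. Krt14 in BF10 against Ctrl-IgG ran from -0.45 to 3.92 with 1 library left out. In BF10 against aCSF1R it ran from -4.00 to 0.30 with 1 left out and was 3.94 without the 3. In IL-10-Fc against aCSF1R it was 0.13 with a pseudocount of 0.1 and 0.46 with the FPKM sum as a covariate, ran from -3.35 to 0.95 with 1 left out, and was 4.59 without the 3. Without the 3, Krt1 and the median of the 9 genes were both 0.014 in BF10 and 0.046 in IL-10-Fc against aCSF1R. The median of BF10 against IL-10-Fc, near 0 with all libraries, lay between -0.69 and 0.049 over all alternatives. Over all 9 genes and 6 comparisons, 28 fold changes turned without the 3 libraries. Across the pseudocount, filter, scaling, group, covariate and moderation settings 12 results turned and 419 kept direction and side of the threshold. Scaling moved the median of all genes in IL-10-Fc against aCSF1R from -0.51 to -0.79 (TPM) or -0.01 (median of ratios), and the split of all genes called there from 1732 higher and 4937 lower to 2865 and 3121 (median of ratios). Depth in reads is unknown, so the precision of levels near 0 FPKM could not be given. The cause of these changes was not tested.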
